A study of Mus musculus with 8 samples.

Results

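A group of 10 genes that cAMP is known to switch on through the transcription factor CREB, or that limit the cAMP signal once it has started, was followed in mouse palm skin after an injection of PACAP. The genes were Crem, Nr4a1, Nr4a2, Nr4a3, Sik1, Pde4b, Pde4d, Rgs2, Ppargc1a and Gem. They were chosen by name, with earlier results of these data known. All 10 were found on the arrays, where they were represented by 23 of the 39429 probes and 10 of the 29608 gene names. Male WT mice (C57BL/6) and PAC1R KO mice (Adcyap1r1 -/-), 9 to 10 weeks old, were anaesthetised and received 5 µL of vehicle, which was saline with 0.1% BSA, or the same vehicle with 1e-07 mol/L PACAP into the footpad. Palm skin was taken 30 or 60 min later, and all 8 RNA samples thus came from anaesthetised, injected mice. For each genotype and time, 1 PACAP sample and 1 vehicle sample were hybridised together on 2 arrays with the dyes swapped, which gave 8 arrays and 4 comparisons, named here WT 30 min, KO 30 min, WT 60 min and KO 60 min. The methods give 6 mice per genotype but not which of them, or how many, went into each RNA sample. The 2 arrays of a comparison carry the same RNA and were counted as 1 sample pair, so no comparison has a replicate between animals and none can be tested on its own.

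PACAP is a neuropeptide whose receptor PAC1R couples to adenylyl cyclase, the enzyme that makes cAMP. cAMP releases the catalytic subunits of protein kinase A, which phosphorylate CREB bound at cAMP response elements, and genes with such elements are transcribed within minutes. Several of the induced products then close the loop, since phosphodiesterases degrade cAMP, salt-inducible kinases hold the CREB coactivators out of the nucleus, and the short inducible products of Crem occupy the same elements without activating them.

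The bases before the start sites show where the short form of the cAMP response element, TGACG or its reverse complement CGTCA, stands in these genes. RefSeq's promoter table (GRCm38.p6) held 7 of the 10 genes. The 250 bases upstream of the start held 4 such half-sites each in Nr4a1, Nr4a2 and Nr4a3, 2 in Rgs2, 1 in Ppargc1a and 1 at 1 of the 4 listed starts of Pde4b, and 0 in Pde4d. In Nr4a1 the half-sites began 233, 213, 69 and 40 bases before the start, in Nr4a2 200, 144, 123 and 111 bases, and in Nr4a3 231, 213, 205 and 147 bases. Of the 32851 promoters in the table, 17.8% held at least 1 half-site in the same window on either strand and 0.137% held at least 4. The palindromic element TGACGTCA, which holds both half-sites in overlap, was in 1.55% of all promoters and in 0 of these 7 genes. A match of letters describes the sequence and does not show that CREB was bound. The 5 sequences with the half-sites in capitals, written 5′ to 3′ on the gene's strand, are shown because they carry the motif that gives the group its name. They lie at chr15:101266596-101266845 on the plus strand for Nr4a1, chr2:57124004-57124253 on the minus strand for Nr4a2, chr4:48045055-48045304 on the plus strand for Nr4a3, chr1:144004150-144004399 on the minus strand for Rgs2 and chr5:51567726-51567975 on the minus strand for Ppargc1a.
Nr4a1: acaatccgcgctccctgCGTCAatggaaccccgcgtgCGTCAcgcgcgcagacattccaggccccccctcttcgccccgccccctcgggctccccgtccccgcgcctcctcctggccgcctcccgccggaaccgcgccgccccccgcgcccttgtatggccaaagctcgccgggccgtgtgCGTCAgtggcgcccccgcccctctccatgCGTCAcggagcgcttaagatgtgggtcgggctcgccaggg
Nr4a2: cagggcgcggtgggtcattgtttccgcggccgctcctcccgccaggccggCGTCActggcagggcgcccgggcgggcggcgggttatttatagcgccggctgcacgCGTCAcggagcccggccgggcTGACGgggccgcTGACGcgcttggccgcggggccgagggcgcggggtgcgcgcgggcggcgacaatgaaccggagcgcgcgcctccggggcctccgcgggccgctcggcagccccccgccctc
Nr4a3: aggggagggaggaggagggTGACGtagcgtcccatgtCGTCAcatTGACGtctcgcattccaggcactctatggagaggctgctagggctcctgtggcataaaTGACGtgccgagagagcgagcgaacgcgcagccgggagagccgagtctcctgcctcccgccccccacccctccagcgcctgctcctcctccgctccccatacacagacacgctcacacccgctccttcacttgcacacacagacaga
Rgs2: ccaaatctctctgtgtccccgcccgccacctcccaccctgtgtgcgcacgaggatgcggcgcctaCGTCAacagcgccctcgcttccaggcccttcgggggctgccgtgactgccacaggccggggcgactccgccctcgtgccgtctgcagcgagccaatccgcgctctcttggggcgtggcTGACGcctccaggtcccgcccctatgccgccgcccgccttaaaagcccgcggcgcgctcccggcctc
Ppargc1a: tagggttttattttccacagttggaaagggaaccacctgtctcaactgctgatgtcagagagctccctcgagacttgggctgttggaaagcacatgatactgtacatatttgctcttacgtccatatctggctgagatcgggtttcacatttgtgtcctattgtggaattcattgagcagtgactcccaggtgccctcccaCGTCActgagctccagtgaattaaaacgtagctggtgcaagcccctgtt

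Values are log2 ratios of PACAP over vehicle from the authors' scanner software, given for both arrays of a comparison in the order array 1, array 2, and log2 levels of a probe in each RNA sample. Where a gene had several probes, the brightest is given first. The share of spots clearly brighter than background was 78.6% to 94.5% per array in red and 54.0% to 65.3% in green, and precision is limited by the small number of arrays. All 13 epidermal markers were well above background on every array in both channels, and so were all 16 markers of skeletal muscle. The 4 WT arrays shared 1 slide and the 4 KO arrays shared another, which means that slide and genotype cannot be told apart. The probe for Adcyap1r1, the deleted gene, gave levels of 8.28 (30 min) and 8.67 (60 min) in WT vehicle skin and of 7.98 and 8.56 in KO vehicle skin. Signal for the receptor gene was thus also measured in the samples labelled KO, and whether this probe lies in the deleted part is not given in the sources used here.

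At 30 min most of the genes lay above vehicle after PACAP in WT mice and below it in PAC1R KO mice, by less than 2-fold on average apart from Ppargc1a in PAC1R KO mice, whose PACAP sample was near background and whose mean depended on how the background was treated. Of the 10 genes, 9 had a probe that could be used in every comparison, and Nr4a3 did not. In WT mice at 30 min, 8 of the 9 were above 0 on both arrays, against 28% of all 23072 genes tested, and Crem was below 0 on both, as 28.5% were. Both arrays thus had the same direction in 9 of the 9 genes, against 56.5% of all genes. The shares therefore also depend on how often the 2 arrays of a gene agreed. In PAC1R KO mice at 30 min, 6 of the 9 were below 0 on both arrays, against 35.2% of all genes, and Crem and Rgs2 were above 0 on both, against 29.2%. The 6 genes above 0 on both WT arrays and below 0 on both KO arrays were Nr4a1, Nr4a2, Ppargc1a, Sik1, Pde4b and Pde4d, and 21.1% of all genes had that pattern. Crem had the opposite pattern, which 17.5% of all genes shared. The median of the 9 genes was 0.49 in WT mice and -0.15 in PAC1R KO mice at 30 min, beside medians of -0.04 and -0.01 over all genes tested.

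**Figure D1:**
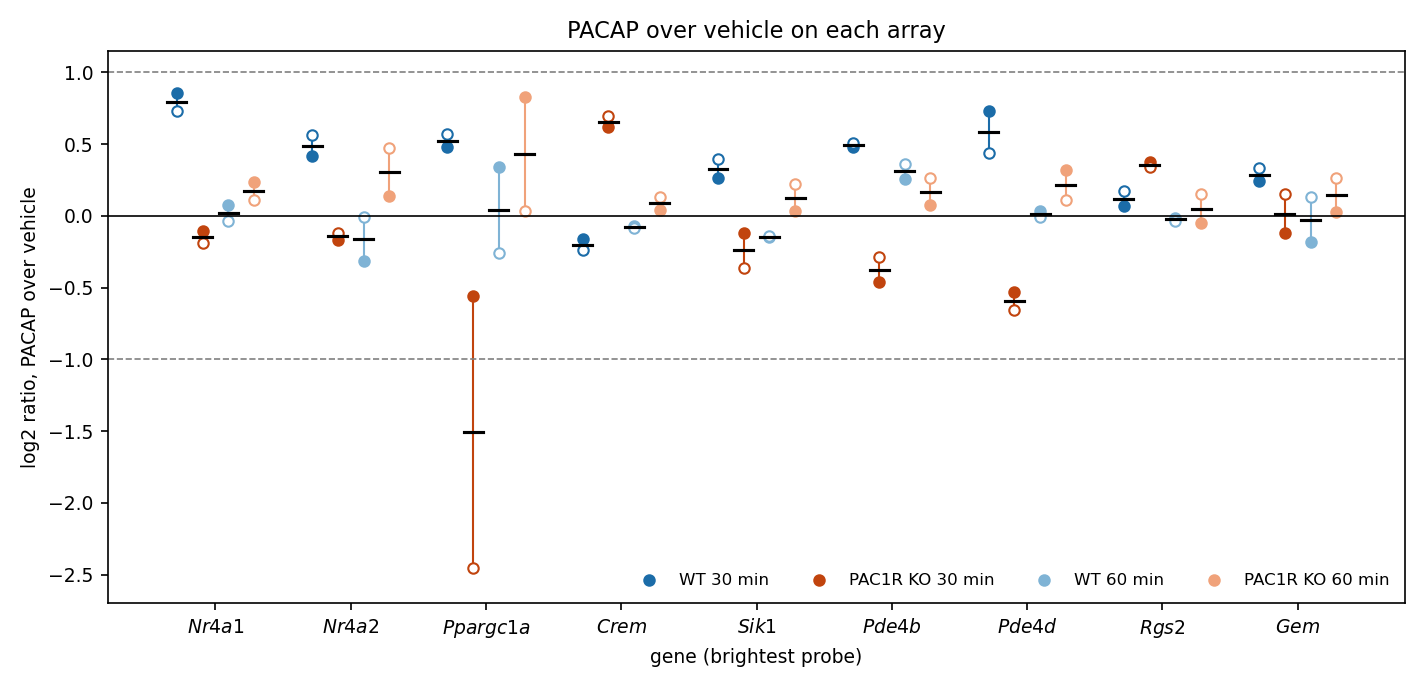
The log2 ratio of PACAP over vehicle is plotted for 9 genes (x axis, brightest probe) in the 4 comparisons, with array 1 as a filled and array 2 as an open circle, their mean as a black bar and 2-fold changes as dashed lines. In WT mice at 30 min 8 genes lie above 0 with Nr4a1 highest, and the longest line is that of Ppargc1a in KO mice at 30 min, from -0.56 to -2.46.

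The Nr4a genes encode orphan nuclear receptors that are classical immediate early genes. Nr4a1, measured by a single probe at chr15:101105071-101105130 (mm9), had log2 ratios of 0.86 and 0.73 in WT mice at 30 min, a mean of 1.73-fold. On the KO arrays of the same time its log2 ratios were -0.11 and -0.19, or 0.903-fold. At 60 min the log2 ratios were 0.08 and -0.04 in WT mice and 0.23 and 0.11 in PAC1R KO mice. The WT 30 min arrays thus stood clear of the other 6. Nr4a1 was the only gene of the 9 past 1.5-fold on average with the same direction on both arrays in WT mice at 30 min, a rule that 2.98% of all genes passed upward.

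Nr4a2 had log2 ratios of 0.41 and 0.56 in WT mice at 30 min, a mean of 1.40-fold. In PAC1R KO mice at 30 min its log2 ratios were -0.17 and -0.12. At 60 min they were -0.31 and -0.01 in WT mice and 0.14 and 0.47 in PAC1R KO mice. At 60 min the arrays of each pair lay further apart than at 30 min, and only the WT 30 min arrays and the second KO 60 min array lay above 0.4. Nr4a3 was printed on 10 spots per array, and its probe was not well above background in any PACAP sample. In vehicle skin it was well above background on 1 of 2 arrays of each genotype at 60 min and on 0 arrays at 30 min. The scanner software had set between 3 and 10 of its 10 spot ratios to 0 on each array, and no fold is given for it.

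Ppargc1a encodes PGC-1alpha, a coactivator of mitochondrial gene programmes. It had log2 ratios of 0.48 and 0.57 in WT mice at 30 min, or 1.44-fold. In PAC1R KO mice at 30 min they were -0.56 and -2.46, and the PACAP sample was well above background on only 1 of these 2 arrays. With the background modelled by normexp, the mean of that comparison was -0.32 instead of -1.51, and the PACAP signal there was close to background. At 60 min the log2 ratios were 0.34 and -0.26 in WT mice and 0.83 and 0.03 in PAC1R KO mice, with the arrays of a pair far apart in each. In PAC1R KO mice at 60 min both samples were well above background on only 1 of 2 arrays, and normexp gave a mean of 0.08 there.

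Crem encodes the cAMP response element modulator, which includes the short inducible repressors. At 30 min its values lay on the other side of 0 from those of Nr4a1, Nr4a2 and Ppargc1a. Log2 ratios were 0.62 and 0.69 in PAC1R KO mice at 30 min, a mean of 1.57-fold, and the second probe of the gene gave 0.56 and 0.49. In WT mice at 30 min they were -0.16 and -0.24 at the brightest probe and close to 0 and -0.40 at the second. At 60 min the brightest probe gave -0.07 and -0.08 in WT mice and 0.04 and 0.13 in PAC1R KO mice. All 4 WT arrays were therefore below 0 and all 4 KO arrays above 0 at this probe, as in 0.732% of all genes, with the 60 min values close to 0. This pattern was looked for after the values were seen. Crem was the 1 gene of the 9 that passed 1.5-fold upward in KO mice at 30 min, where 3.34% of all genes did. Whether any of the 4 Crem probes separates the inducible repressors from the longer products was not settled here.

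The remaining genes act on the signal itself. Sik1, a salt-inducible kinase, had log2 ratios of 0.26 and 0.40 in WT mice at 30 min and -0.12 and -0.36 in PAC1R KO mice. At 60 min it had -0.15 and -0.14 in WT mice and 0.03 and 0.22 in PAC1R KO mice. All of these lie within 1.5-fold of vehicle.

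Pde4b and Pde4d encode phosphodiesterases that hydrolyse cAMP. Pde4b had log2 ratios of 0.48 and 0.51 in WT mice at 30 min and -0.46 and -0.29 in PAC1R KO mice. In WT mice its brightest probe was still above vehicle on both arrays at 60 min, at 0.26 and 0.36. By brightest probe it was the only 1 of the 9 genes above 0 on both arrays there, against 20.2% of all genes. The second probe of Pde4b, well above background in both samples, gave -0.33 and 0.82 there and did not repeat this. Pde4d had log2 ratios of 0.73 and 0.44 in WT mice at 30 min, a mean just short of 1.5-fold, and -0.53 and -0.66 in PAC1R KO mice, or 0.662-fold. At 60 min Pde4d was at 0.03 and -0.01 in WT mice and at 0.32 and 0.11 in PAC1R KO mice. Pde4d and Ppargc1a were the 2 genes past 1.5-fold downward in KO mice at 30 min, where 3.98% of all genes were. With the background modelled by normexp neither passed, at means of -0.40 for Pde4d and -0.32 for Ppargc1a.

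Rgs2 encodes a regulator of G protein signalling and Gem a small GTPase that binds voltage-gated calcium channel subunits. Rgs2 had log2 ratios of 0.07 and 0.17 in WT mice at 30 min and 0.37 and 0.34 in PAC1R KO mice, so that it was above vehicle in both genotypes. Gem had 0.24 and 0.33 in WT mice and -0.12 and 0.15 in PAC1R KO mice at 30 min. At 60 min both genes had means within 0.15 of 0 on the log2 scale in both genotypes.

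**Figure D2:**
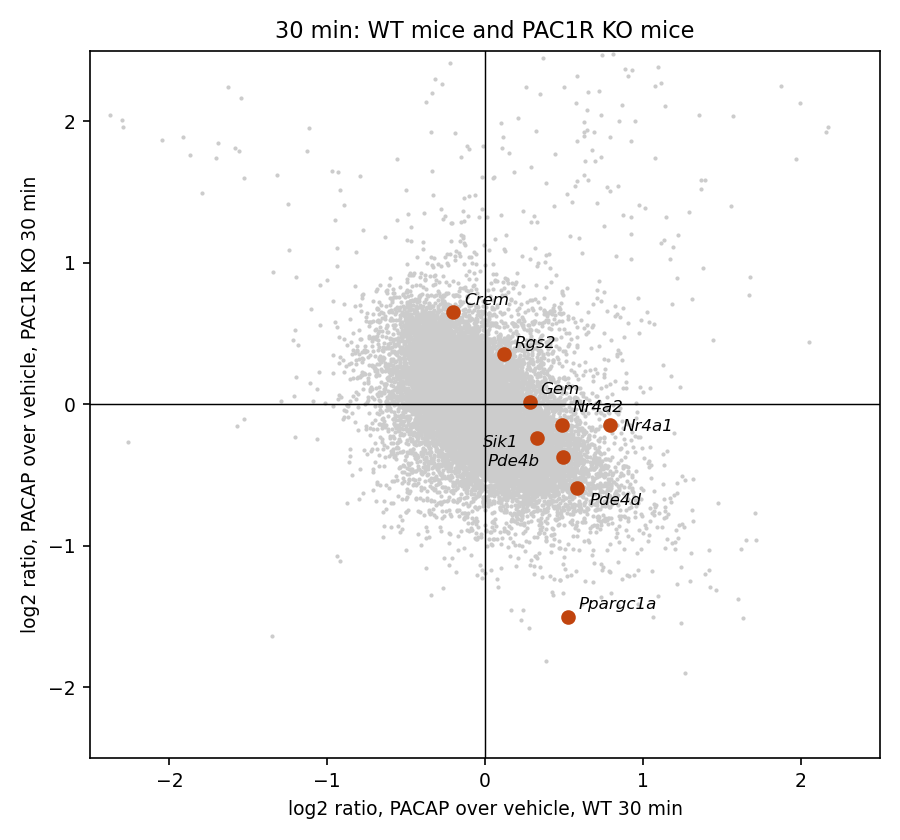
Each grey point is 1 of 23072 genes, with its mean log2 ratio of PACAP over vehicle at 30 min in WT mice on the x axis and in PAC1R KO mice on the y axis, and 9 genes of the group are shown in colour (29 genes lie outside the axes). The genes of the group lie mostly at the lower right, within or at the edge of the cloud of all genes, and Crem lies at the upper left.

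Other probes of a gene did not always repeat its brightest probe. The second probes of Nr4a2, Ppargc1a, Pde4b, Crem and Gem had means on the same side of 0 as the brightest probe in both genotypes at 30 min. Their 2 arrays did not always have the same direction. At 30 min the second probe of Nr4a2 gave 0.06 and -0.54 in PAC1R KO mice, and that of Ppargc1a -0.02 and 0.64 in WT mice. The second Ppargc1a probe was also well above background on only 1 array in WT vehicle skin and in PAC1R KO skin after PACAP. For Pde4b the second probe gave 0.11 and 0.92 in WT mice and -0.999 and 0.08 in PAC1R KO mice at 30 min, a wide spread between dyes around means of 0.51 and -0.46. The second probe of Pde4d had a mean of 0.15 in PAC1R KO mice at 30 min, against -0.59 at the brightest. Its arrays gave -0.07 and 0.62 in WT mice and -0.06 and 0.36 in PAC1R KO mice. The remaining probes of Crem, Pde4b, Pde4d and Rgs2 were not well above background on at least 1 array of every comparison and carry no measure of the change.

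**Figure D3:**
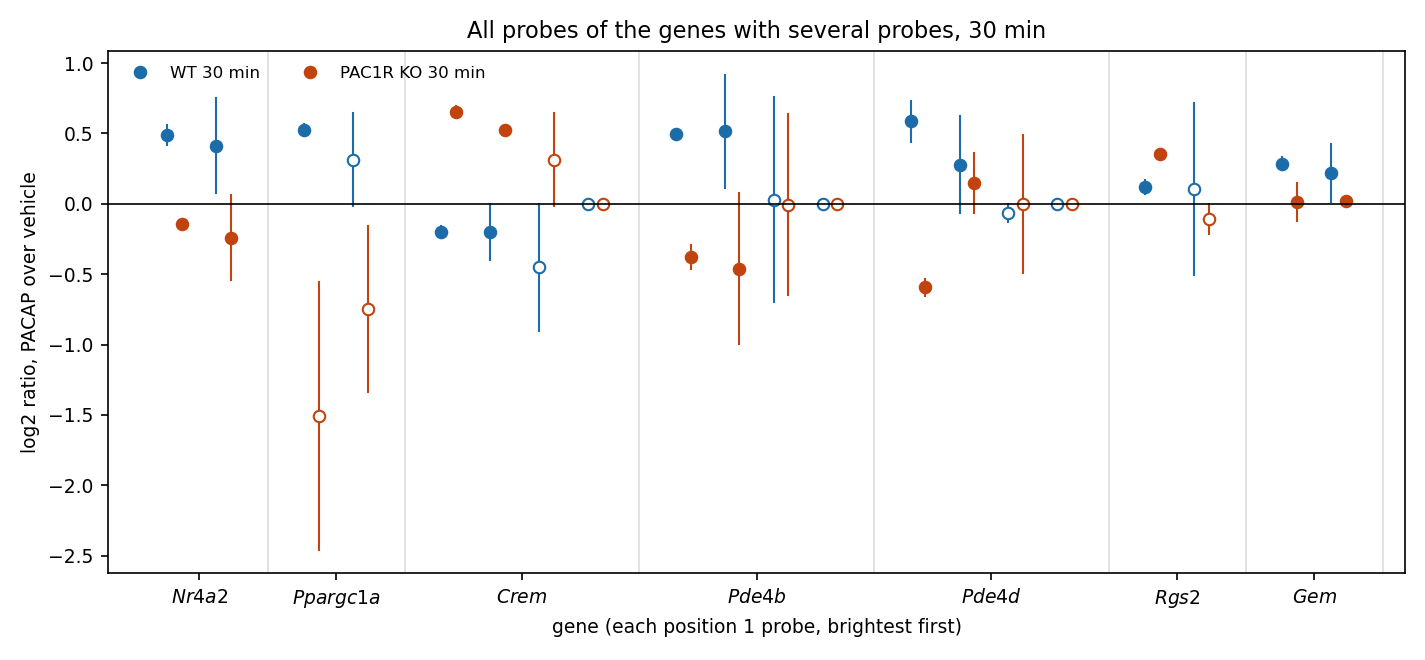
For the 7 genes with several probes, each position is 1 probe, brightest at the left of its gene, with the mean log2 ratio of PACAP over vehicle at 30 min as a circle and the 2 arrays as the ends of the line. Open circles mark probes not well above background in both samples on both arrays, and these spread widely between arrays or were set to 0.

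By a rule that took the study's 2-fold threshold on the mean and required the same direction and a scanner p-value below 0.01 on both arrays, 0 of the 9 genes were called in any of the 4 comparisons. Over all 23072 genes this rule called 0.477% in WT mice at 30 min, 1.01% in PAC1R KO mice at 30 min, 0.954% in WT mice at 60 min and 0.416% in PAC1R KO mice at 60 min. With the p-value requirement left out, Ppargc1a was called lower in PAC1R KO mice at 30 min, as were 0.416% of all genes.

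By 60 min the medians of the 9 genes were -0.02 in WT mice and 0.17 in PAC1R KO mice, beside -0.01 and 0.0046 over all genes. In PAC1R KO mice at 60 min 8 of the 9 genes were above 0 on both arrays, against 23.2% of all genes. The means of 7 of these ran from 0.09 for Crem to 0.30 for Nr4a2, and the eighth, Ppargc1a, was near background. In WT mice at 60 min 4 of the 9, Crem, Nr4a2, Sik1 and Rgs2, were below 0 on both arrays, against 25.1% of all genes. Across the 8 arrays, 0 of the 9 genes kept 1 direction throughout, and 1.49% of all genes did.

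Markers of other cell types differed between the samples of a pair at both times. All 16 skeletal muscle markers were above 0 in WT mice at 30 min, with a median log2 ratio of 0.79, and 15 of 16 were below 0 in PAC1R KO mice, with a median of -0.70. The summed log2 level of the muscle markers was 17.52 with vehicle and 18.37 with PACAP in WT mice, and 18.14 and 17.46 in PAC1R KO mice, while all 4 samples at 60 min lay between 17.95 and 18.04. Epidermal markers had a median of 0.16 in WT mice and -0.65 in PAC1R KO mice at 30 min, and fibroblast markers 0.32 and -0.50. Eccrine gland markers had -0.17 and -0.47. Neutrophil markers had a median of 0.34 in WT mice and 0.94 in PAC1R KO mice at 30 min, and of -0.17 and 0.18 at 60 min. Their summed log2 level with vehicle and with PACAP was 13.69 and 15.03 in PAC1R KO mice at 30 min and 13.89 and 15.42 at 60 min, against 13.63 and 14.24 and 14.23 and 14.71 in WT mice. Hair shaft and root sheath markers had medians of 0.32 in WT mice and 1.32 in PAC1R KO mice at 30 min, and of 2.29 and -0.46 at 60 min. Of these 13 markers, 2 in WT mice (0.342% of all genes) and 9 in PAC1R KO mice (0.88%) at 30 min and 10 in WT mice (0.824%) at 60 min were called above 2-fold. Hepatocyte markers had a median of -1.66 in WT mice at 60 min, with 6 of 10 called below 0.5-fold against 0.13% of all genes, and between -0.01 and 0.16 in the other comparisons. Only 5 of the 12 hepatocyte markers were well above background everywhere, and the summed log2 level of all 12 in WT mice at 60 min was 13.28 with vehicle and 12.98 with PACAP. In such bulk skin samples, fewer cells of a type and less RNA per cell cannot be told apart, and the part that these shifts have in the ratios of the 9 genes was not tested.

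The 4 comparisons were then fitted together with limma across 30357 probes, with 1 value per comparison. For the mean over the 4 comparisons, the difference between genotypes and the difference between times, 0 probes passed an adjusted p of 0.05, or 0% of those tested, and 679 (2.24%), 972 (3.2%) and 483 (1.59%) probes had an unadjusted p below 0.05. Of the 9 genes, Crem came closest for the difference between genotypes, with a log2 ratio higher in PAC1R KO mice by 0.51 (SE 0.25, limma adjusted p = 0.839). Without KO 30 min this difference was 0.23, and without KO 60 min 0.79. Pde4b followed, with a ratio lower in PAC1R KO mice (difference -0.50, SE 0.25, limma adjusted p = 0.839), and its difference was -0.23 without KO 30 min and -0.78 without KO 60 min. For the mean over all comparisons Nr4a1 had 0.21 (SE 0.16, limma adjusted p = 1), which was 0.015 without WT 30 min and 0.33 without KO 30 min. Adjusted p-values of the 9 genes ran from 0.839 to 0.955 between genotypes and were 1 in the other fits, and with 4 values a difference of the sizes seen here could not be told from the spread between comparisons.

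In vehicle skin Nr4a1 had the largest fitted difference among the 9 genes, between times. With processed signals in place of the modelled levels this was no longer so, since Nr4a1 then differed between times by 0.81, and Ppargc1a by -1.34 between times and also by -1.34 between genotypes. The level of Nr4a1 was 11.97 in WT and 12.04 in PAC1R KO vehicle skin at 30 min, and 13.01 and 12.66 at 60 min. The 2 samples at 60 min thus lay above both at 30 min, by 2.06-fold in WT mice and 1.53-fold in PAC1R KO mice. After PACAP the level in WT mice was 12.76 at 30 min, higher than vehicle of that time and lower than the WT vehicle sample of 60 min, and 13.01 at 60 min. In PAC1R KO mice after PACAP it was 11.92 and 12.83.

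**Figure D4:**
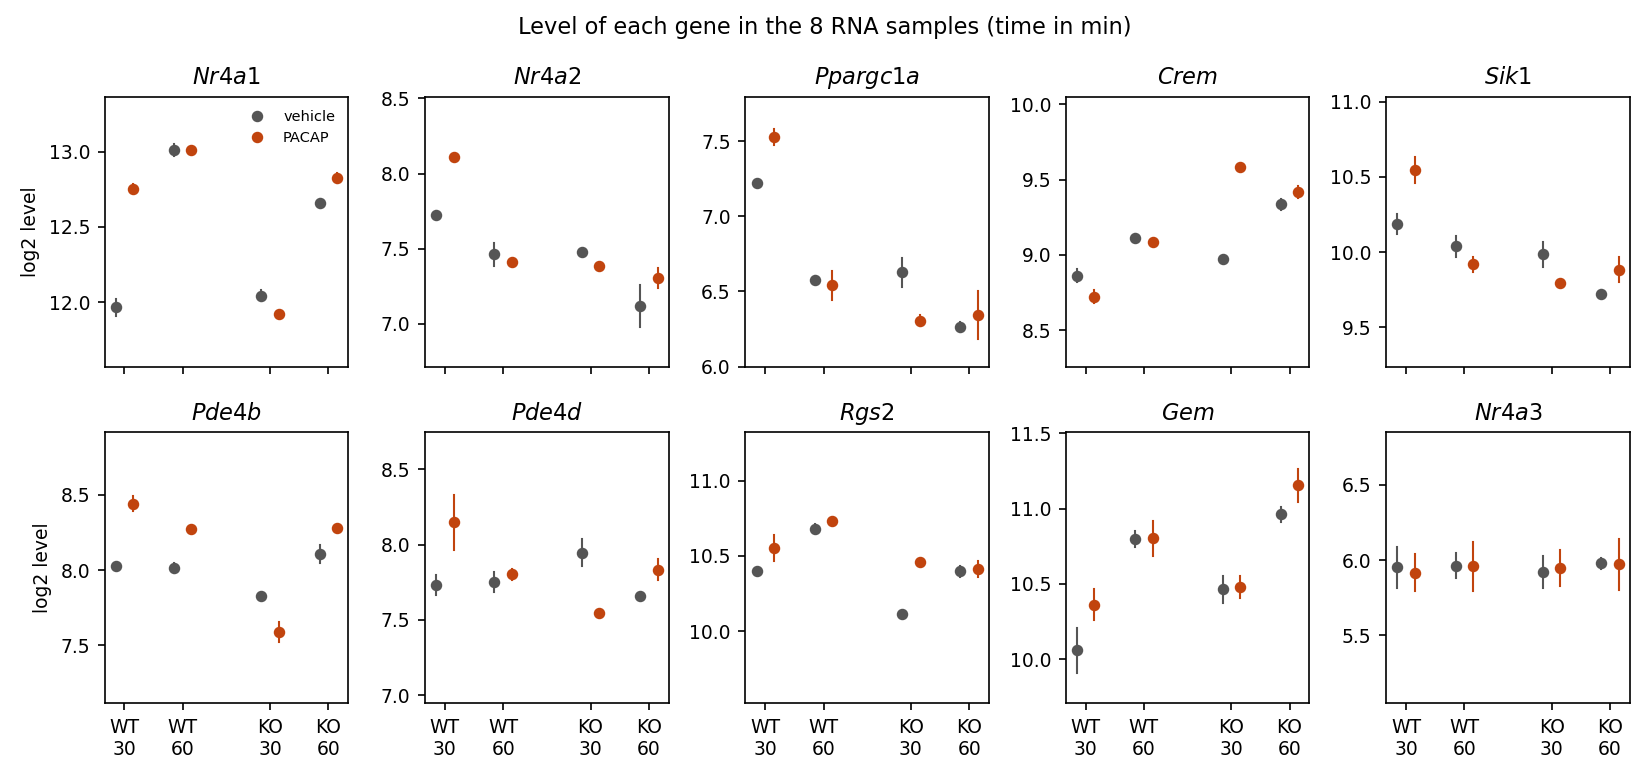
Log2 levels of the brightest probe of each of the 10 genes in the 8 RNA samples, by genotype and time in minutes (x axis), with vehicle in grey and PACAP in colour. Points are means of 2 arrays, lines join the arrays, and each panel spans 1.8 log2 units. Nr4a1 and Gem are higher at 60 min in both genotypes, and Nr4a3 is flat near background.

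Gem was also higher at 60 than at 30 min, with vehicle levels of 10.06 in WT and 10.46 in PAC1R KO mice at 30 min, and 10.80 and 10.96 at 60 min. Crem vehicle levels were 8.86 and 8.97 at 30 min and 9.11 and 9.34 at 60 min. These 3 genes had both vehicle samples at 60 min above both at 30 min, as 22.1% of all genes did. Nr4a2 and Ppargc1a had both below, as 28% did. Vehicle levels of Nr4a2 were 7.72 and 7.48 at 30 min and 7.46 and 7.12 at 60 min in WT and PAC1R KO mice, so the KO sample of 30 min and the WT sample of 60 min were alike within the arrays' spread. Those of Ppargc1a were 7.22 and 6.63 at 30 min and 6.57 and 6.27 at 60 min. Here too the KO sample of 30 min and the WT sample of 60 min were alike within the arrays' spread.

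In limma on 24903 probes in the 4 vehicle samples, Nr4a1 was higher at 60 than at 30 min by 0.83 (SE 0.15, limma adjusted p = 0.193) and Gem by 0.62 (SE 0.17, limma adjusted p = 0.197). Neither passed after adjustment over all probes, where 0 probes, or 0%, did, while 4385 probes, or 17.6%, had an unadjusted p below 0.05. That fit had no term for genotype. With genotype as covariate, which compares the times within each genotype, the limma adjusted p was 0.118 for Nr4a1 and for Gem. Again 0 probes passed. Between genotypes 0 probes passed in vehicle skin, or 0%, with 1254, or 5.04%, at an unadjusted p below 0.05. Sik1 and Rgs2 were lower in both KO vehicle samples than in both WT ones, a pattern of 17.8% of all genes. Sik1 vehicle levels at 30 and 60 min were 10.19 and 10.04 in WT mice, and 9.99 and 9.72 in PAC1R KO mice, and the WT 60 min and KO 30 min samples did not differ beyond the spread between arrays. Rgs2 vehicle levels were 10.40 and 10.68 in WT mice and 10.11 and 10.40 in PAC1R KO mice, and here the WT 30 min and KO 60 min samples were that close. The genotype differences were -0.26 (SE 0.14) for Sik1 and -0.28 (SE 0.17) for Rgs2, with a limma adjusted p of 0.892 for each. Leaving out 1 vehicle sample moved them to between -0.39 (without KO 30 min) and -0.13 (without KO 60 min) for Sik1, and to between -0.43 (without KO 60 min or WT 30 min) and -0.14 (without KO 30 min or WT 60 min) for Rgs2.

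Vehicle levels of the phosphodiesterases stayed close together. Pde4b had 8.03 and 8.01 in WT mice and 7.83 and 8.11 in PAC1R KO mice at the same times. Pde4d had 7.73 and 7.75 in WT mice and 7.95 and 7.66 in PAC1R KO mice. For Pde4d the vehicle sample of KO 30 min was thus the highest of the 4, and the PACAP sample of WT 30 min, at 8.15, the highest of all 8.

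For the 3 genes whose levels spanned at least 1 log2 unit over the 8 RNA samples, the genes with the most similar profile were sought by the root mean square difference of centred log2 levels. Nr4a1 was most like Ampd1, at 0.13, followed by Aldh1a1 at 0.15 and Coq8a at 0.16. Ppargc1a, which lay near background in several samples, was most like Fam160b1 and Dag1, at 0.057 each, and Kdm5a, at 0.071. Gem was most like Glrp1, Pak7 and Ocstamp, at 0.095, 0.098 and 0.10.

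Other genes of the cAMP pathway were followed as lists. Among 21 genes for receptors and cAMP production, 0 were called at 2-fold in any comparison, and the median log2 ratio was 0.07 in WT mice and -0.26 in PAC1R KO mice at 30 min, where 15 of 21 were below 0. Of the 13 tested genes for protein kinase A, its inhibitors and anchors and Epac, 0 were called at 2-fold, with medians of -0.06 and -0.22 at 30 min. The 11 genes of the CREB family, its coactivators and related kinases were all above 0 in WT mice at 30 min, with a median of 0.19, and all below 0 in PAC1R KO mice, with a median of -0.26. At 60 min 9 of the 11 were below 0 in WT mice, against 53% of all genes, with a median of -0.05, and all 11 were above 0 in PAC1R KO mice, against 51.2%, with a median of 0.13. In WT mice at 30 min 43.3% of all genes were above 0, and in PAC1R KO mice at 30 min 51.1% were below 0. None of these 11 passed 1.5-fold with the same direction on both arrays in any comparison. Of all genes, 4.13% in WT mice and 7.32% in PAC1R KO mice at 30 min did, and 2.2% and 1.65% at 60 min. With shares this low, a count of 0 among 11 says little. The 13 tested phosphodiesterases outside the group had medians of 0.05 and -0.28 at 30 min, and 0 were called at 2-fold.

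Another list held 23 other genes known to respond to cAMP, of which 21 could be tested. It held the only genes of the pathway called at 2-fold with the p-value requirement. In WT mice at 30 min 2 of them were called higher, Il6 and Ptgs2, as were 0.342% of all genes. Il6, a cytokine, had log2 ratios of 2.08 and 2.24 in WT mice, a mean of 4.47-fold, and 1.76 and 2.09 in PAC1R KO mice at 30 min, or 3.80-fold. Ptgs2, the inducible cyclooxygenase, had 1.32 and 1.57 in WT mice, or 2.72-fold, and 0.37 and 0.54 in PAC1R KO mice at 30 min. At 60 min Il6 had 0.0033 and 0.33 in WT mice and 0.81 and 0.84 in PAC1R KO mice. Ptgs2 at 60 min had 0.26 and 0.43 in WT mice and 0.69 and 0.91 in PAC1R KO mice, so that the order of the genotypes was the other way at this time. Il6 was thus high in both genotypes at 30 min, and was the 1 gene of the list called in PAC1R KO mice at that time, where 0.88% of all genes were called higher. In the limma fit between genotypes neither gene passed, as 0 probes did.

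The median of the 21 genes was 0.21 in WT mice and 0.04 in PAC1R KO mice at 30 min. Of the 21, 15 were above 0 in WT mice at 30 min, against 43.3% of all genes, and 6 passed 1.5-fold upward, against 2.98%. At 60 min 15 of the 21 were below 0 in WT mice, against 53% of all genes, with a median of -0.10, and 3 passed 1.5-fold upward in PAC1R KO mice, against 1.19% of all genes. Of the 8 relatives of Rgs2 and Gem, 0 were called at 2-fold in any comparison.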

How the data were processed

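Palm skin RNA of 8 samples was measured on 8 arrays. Scans were extracted by the authors in Feature Extraction (Agilent), version 12.0.3.1 per the file headers and 11.0.1.1 in the submitters' processing notes. As deposited, log10 ratios (red over green) were background-corrected and LOWESS-normalized per array, and ratios without usable signal had been set to 0. The deposited p-value of a spot is that of the scanner software and speaks of 1 array, not of animals. The deposited intensity values are mean and processed signals with local backgrounds, and depth is not a property of arrays. The log10 ratios in the authors' series matrix were used as an alternative.

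Control and outlier spots (198 to 342 per array) were left out, 0 spots were saturated, and ratios were turned to PACAP over vehicle on the log2 scale by the dye labels and averaged over spots and both arrays. Log2 levels came from the deposited intensity values by normexp (offset 50), loess and Aquantile. The 30357 probes with signal above background in either channel of all arrays entered the ratio fits, and 24903 probes the fits of vehicle levels, in limma 3.58.1 with R 4.3.3 (lmFit, eBayes, Benjamini-Hochberg). A gene is represented by the probe with the highest mean level. Named genes are the 10 genes of the group, genes of a pathway list called at 2-fold, Adcyap1r1, and the 3 genes most alike in profile. The genes, lists and tests were chosen with earlier results of these data known. Names and coordinates (mm9) were taken from the files. The fits were tested on simulated data. Python 3.11.15 with pandas 2.3.3 was used. Alternatives were other thresholds, normalizations, filters, covariates and single arrays or comparisons left out.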

Additional observations from a re-analysis of the deposited data

Results flagged for a closer look

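The ratios of Crem lay on opposite sides of 0 in the genotypes. Means were -0.20 and -0.08 in WT mice and 0.65 and 0.09 in PAC1R KO mice on the log2 scale (30 min, then 60 min). All 4 WT arrays were below 0 and all 4 KO arrays above 0, as in 0.732% of all genes. This pattern was looked for after the values were seen. On the WT arrays the scanner p-values were 0.43 and 0.24 at 30 min and 0.73 and 0.68 at 60 min, so a change in WT mice was not shown. At 60 min the arrays were close to 0, at -0.07 and -0.08 in WT mice and 0.04 and 0.13 in PAC1R KO mice. The difference was 0.51 and did not pass the limma test (adjusted p = 0.839). It was 0.23 without KO 30 min and 0.79 without KO 60 min. Each genotype lay on 1 slide, and slide and genotype cannot be told apart.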

How the results depend on the processing

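With 1 pair of RNA samples per comparison, the spread between animals is not measured, and genes near background (Nr4a3, Ppargc1a) are limited by signal. The count of genes called was 0 in every comparison. At 1.5-fold without a p-value it became 1 in WT mice at 30 min (Nr4a1), where 4.13% of all genes were called. By the same rule it became 3 in PAC1R KO mice at 30 min (Crem, Ppargc1a, Pde4d), where 7.32% were. At 2-fold without the p-value filter it became 1 in PAC1R KO mice at 30 min (Ppargc1a, lower), as were 0.416% of all genes. Single arrays gave between 0 and 1. Probes past an adjusted p of 0.05 in limma, 0 in each fit, became 17 for KO minus WT with time point as covariate and 2 for 60 minus 30 min with genotype as covariate. Leaving out 1 comparison or sample gave 0 to 1 for the mean (1 without WT 30 min), 0 to 170 for KO minus WT (170 without WT 30 min, 83 without WT 60 min), 0 to 14 for 60 minus 30 min (14 without KO 60 min), 0 to 65 for vehicle levels by genotype (65 without KO 30 min vehicle) and 0 to 228 for vehicle levels by time (228 without WT 60 min vehicle, 9 without KO 60 min vehicle). An arm left with 1 sample was assumed to vary like the other. In these alternatives 0 of the genes in the fits passed, and their lowest adjusted p was 0.118. The difference between 60 and 30 min was 0.73 for Ppargc1a and -0.22 for Crem, and turned to -0.29 and 0.21 without KO 30 min, with a range over all comparisons left out of -0.29 to 1.74 and -0.65 to 0.21. With normexp and loess the difference for Ppargc1a was 0.029, and 4 of 36 mean ratios changed sign. The cause was not tested. No paired analysis was possible by array number because numbers 1 and 2 mark the dye orientation of the same RNA pair. Both arrays were averaged before every fit. The main fits had no term for the other factor, and only the fits with genotype as covariate compared the times within each genotype.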
